A study of Oryza sativa with 10 samples.

Results

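To describe how the roots of 2 rice lines with overexpression constructs of different NAC factors differ from each other, the FPKM values of the OsNAC10 line were compared directly with those of the OsNAC9 line. FPKM is a measure of transcript abundance, the number of sequenced fragments scaled to the length of the transcript and to the size of the library. The 4 libraries compared, 2 of each line, were chosen by the sample titles out of 10 libraries in 5 groups. The OsNAC10 line carries RCc3:OsNAC10-myc and the OsNAC9 line RCc3:myc-OsNAC9, in which RCc3, the promoter of a root-specific gene, drives the factor fused to a MYC epitope tag. The RNA came from roots of the cultivar Illmi at 20 days of age, and 2 libraries of non-transgenic (NT) roots of the same cultivar and age are given for orientation.

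Several features limit the lines as models of the 2 factors. The order of the names in the titles places the tag on opposite ends of the proteins, so the factor and the position of the tag cannot be told apart. Both lines were regenerated from callus and carry a herbicide resistance gene as selection marker, which NT lacks. The study kept the lines with the most tagged protein, and whether a group holds a single transformant or several is not stated, so a difference between groups cannot be told apart from a difference between individual transformants. The methods of the study describe plants submerged in water before the roots were taken, whereas the labels and the results text name normal growth, and both lines are described in the same way. The 2 libraries of a group are called independent biological replicates, but the number of plants behind each is not stated, and the p-values measure the spread between these libraries, which may be partly technical.

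NAC proteins are plant-specific transcription factors with a conserved DNA-binding domain at the amino end, and several of them are induced by drought and salt. OsNAC9 and OsNAC10 belong to the stress-responsive members of the family in rice. Roots that overexpress either gene are known for an enlarged stele, the central cylinder with the vascular tissue, and OsNAC9 roots also for enlarged aerenchyma, the gas spaces of the cortex.

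The libraries were alike in size. Total FPKM lay between 747715 and 782112 in the 4 libraries, and their depth relative to OsNAC9 replicate 1, read from the steps between the lowest values, was between 0.973 and 1.29. Read numbers per library were not used here. On the log2(FPKM + 1) scale the replicates correlated at r = 0.992 in OsNAC9 and 0.994 in OsNAC10 across transcripts, and libraries of different lines at 0.968 to 0.978. Across the 493 transcripts at 200 FPKM or more in all 4 libraries, the median absolute deviation of the log2 ratio between replicates was 0.116 in OsNAC9 and 0.0672 in OsNAC10, so the OsNAC9 replicates were further apart. The steps rest only on values below 0.15 FPKM, from between 1709 and 2993 transcripts a library. The precision of single transcripts was taken from the replicates.

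Of 33178 transcripts tested (29900 loci), 738 were higher and 1632 were lower in OsNAC10 than in OsNAC9. These calls required an adjusted p below 0.05 (limma, Benjamini-Hochberg over all tested transcripts) and a change of at least 1.5 fold on the log2(FPKM + 1) scale. Against all tested transcripts the calls were 2.22% higher and 4.92% lower, 7.14% together, and they covered 2332 loci. In every called transcript both OsNAC10 libraries lay on the same side of both OsNAC9 libraries. Such a separation without overlap was itself common, with 27.9% of all tested transcripts above and 32.2% below. Large differences were mostly on the lower side, with 130 transcripts lower and 37 higher by at least 4 fold. The median difference over all tested transcripts was -0.02 (log2), and its median SE was 0.12.

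The share of higher calls depended on how the libraries were scaled. It was 31.1% with FPKM as deposited, 46.6% after each library was centred on its median and 39.2% after quantile normalization. Centring raised the higher calls from 738 to 1144, and the median difference over all transcripts to 0.07. The counts also depended on single libraries. With OsNAC10 replicate 2 left out, 388 transcripts were higher and 950 lower, and with OsNAC9 replicate 2 left out, 465 were higher and 857 lower.

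The called transcripts were also set beside NT. Of all tested transcripts, 38.5% were above both NT libraries and 35.2% below both in OsNAC10, and 33.8% above and 31.0% below in OsNAC9. Of the 738 transcripts higher in OsNAC10, 629 were above both NT libraries in OsNAC10 and 472 were below both in OsNAC9, and 363 did both. In 100 of them OsNAC9 was above both NT libraries, and in 49 OsNAC10 was below both. Of the 1632 lower transcripts, 1304 were below both NT libraries in OsNAC10 and 854 were above both in OsNAC9, and 526 did both. A further kind of order was frequent among the lower transcripts, since in 512 of them OsNAC9 was itself below both NT libraries. Each line was compared with the same 2 NT libraries, and these counts are given as a description.

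**Figure D1:**
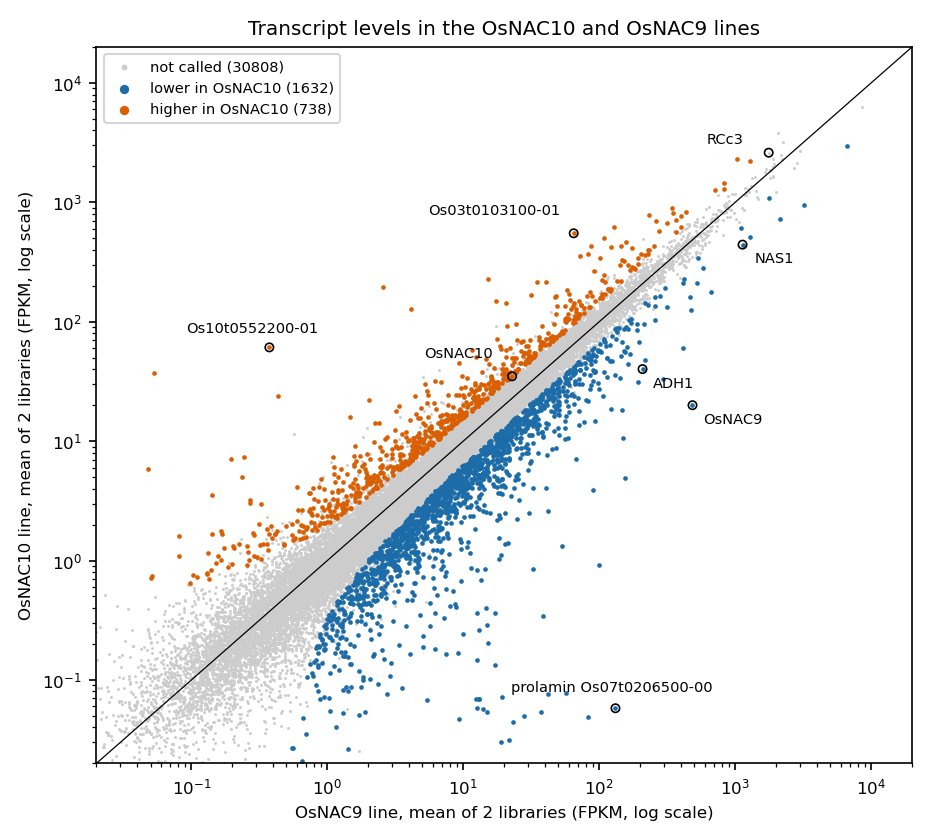
Mean FPKM of each tested transcript in the OsNAC9 line (x axis) and the OsNAC10 line (y axis), each the mean of 2 libraries on a log scale, with equal levels on the diagonal. The 738 transcripts called higher in OsNAC10 are orange and the 1632 called lower are blue, with circles around named transcripts. The prolamin Os07t0206500-00 lies below the diagonal with 0.0527 and 0.0631 FPKM in OsNAC10 against 129 and 134 FPKM in OsNAC9.

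The gene placed in the OsNAC9 construct separated the lines clearly and that of the OsNAC10 construct only weakly. OsNAC9 itself (Os03t0815100-01, chromosome 3, annotated as similar to OsNAC6) was at 413 and 558 FPKM in the OsNAC9 libraries, 19.3 and 20.7 FPKM in the OsNAC10 libraries and 50.1 and 49.8 FPKM in NT. The difference of -4.52 ± 0.21 (log2, SE) had a limma adjusted p = 1.54e-05. OsNAC9 was thus highest in its own line and, in OsNAC10, below both NT libraries. OsNAC10 (Os11t0126900-01, chromosome 11) was at 35.1 and 34.7 FPKM in the OsNAC10 libraries, 22.1 and 23.6 FPKM in OsNAC9 and 27.4 and 27.1 FPKM in NT. It was called higher by 0.59 ± 0.07 (log2, SE, limma adjusted p = 0.00200), just past the fold threshold of 0.585. That call was lost at 0.58 without OsNAC10 replicate 1, at 0.55 without OsNAC9 replicate 1 and at 0.58 after quantile normalization. Its level thus separated the lines, and its own line from NT, by a modest amount, although the OsNAC10 libraries did not overlap with those of OsNAC9 or NT. FPKM values do not separate RNA of the construct from RNA of the plant's own gene, nor a change in RNA per cell from a change in the number of cells of a type.

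RCc3 (Os02t0662000-01), the root gene whose promoter drives both constructs, was at 2545 and 2667 FPKM in OsNAC10, 1659.7 and 1869 FPKM in OsNAC9 and 1927 and 1878 FPKM in NT. Its difference of 0.56 ± 0.17 (log2, SE) missed the call with a limma adjusted p = 0.0686, and passed at 0.65 after centring and 0.67 after quantile normalization. This defining root transcript was abundant in every library compared. The other 2 factors of the series did not pass the test. OsNAC5 (Os11t0184900-02) stood at 27.05 and 27.9 FPKM in OsNAC9 against 22.9 and 23.8 FPKM in OsNAC10, and OsNAC6 (Os01t0884300-01) at 72.4 and 78.9 FPKM against 75.9 and 89.0 FPKM. OsABI5 (Os01t0859300-01), a bZIP factor of abscisic acid signalling, was low but well separated, with 6.06 and 6.80 FPKM in OsNAC9, 0.514 and 0.509 FPKM in OsNAC10 and 1.26 and 1.44 FPKM in NT. It differed by -2.30 ± 0.11 (log2, SE, limma adjusted p = 1.92e-05).

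**Figure D2:**
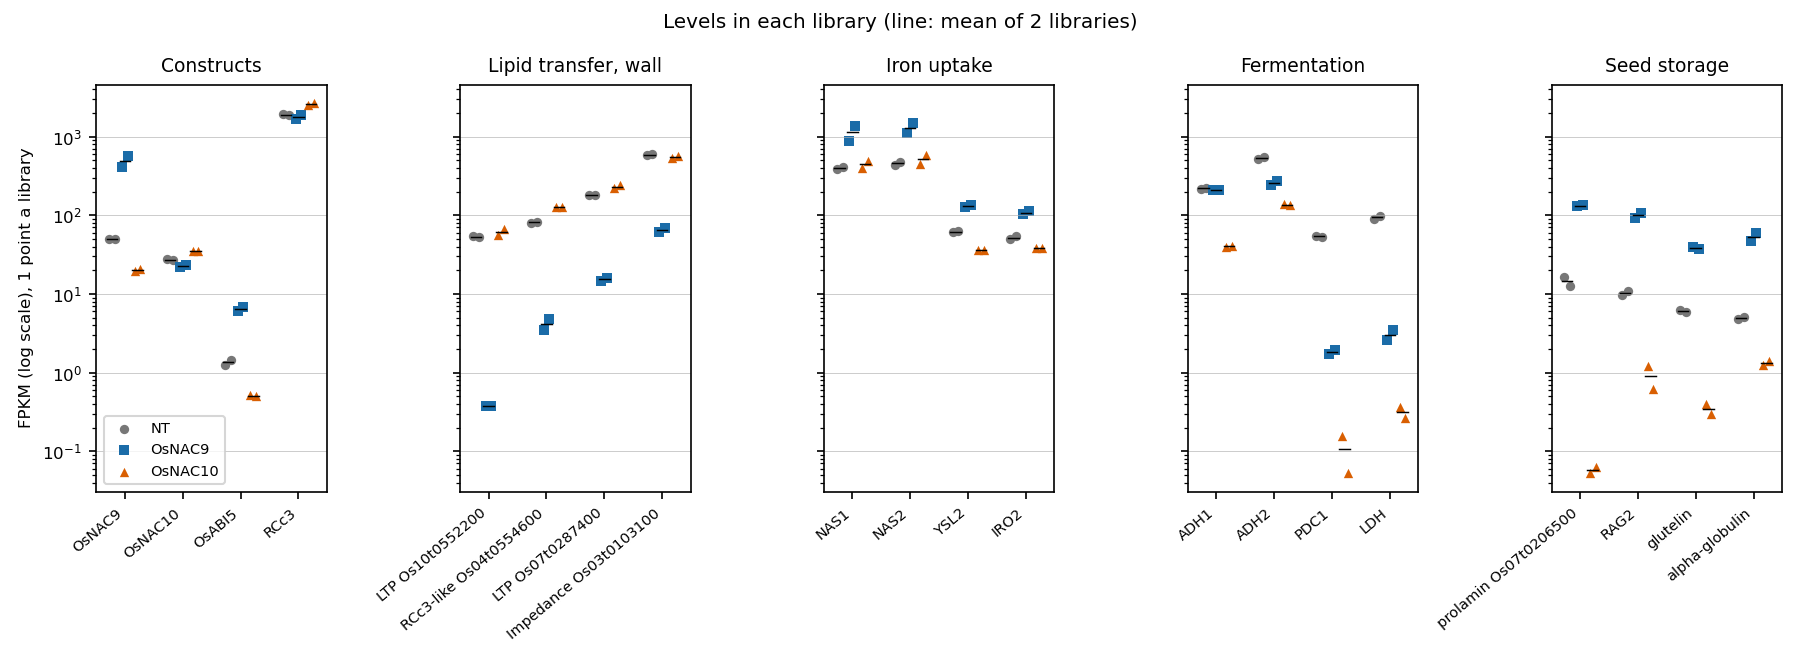
FPKM on a log scale in each NT, OsNAC9 and OsNAC10 library, 1 point a library and a line at the mean of 2, for 4 transcripts each of the constructs, lipid transfer and wall proteins, iron uptake, fermentation and seed storage. The OsNAC9 points are lowest in the lipid transfer panel and highest in the iron and seed storage panels, while the OsNAC10 points are lowest in the fermentation panel, where PDC1 reached 0.158 and 0.0537 FPKM.

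The lipid transfer proteins, small cysteine-rich proteins that bind lipids and to which RCc3 itself belongs, had 11 of 55 tested members higher and 8 lower, against 2.22% and 4.92% of all transcripts. The strongest was Os10t0552200-01, at 56.1 and 65.9 FPKM in OsNAC10 and 54.6 and 52.6 FPKM in NT, but at 0.371 and 0.378 FPKM in OsNAC9. It differed by 5.49 ± 0.21 (log2, SE, limma adjusted p = 6.97e-06), so it was OsNAC9 that left the NT level. An RCc3-like transcript, Os04t0554600-00, showed the same order with 3.49 and 4.75 FPKM in OsNAC9, 80.1 and 82.9 in NT and 129 and 126 in OsNAC10 (4.66 ± 0.21, limma adjusted p = 1.54e-05). Chosen after its values were seen, its neighbour Os04t0554500-00 rose from 93.0 and 125 FPKM to 486 and 519.9 FPKM, and Os07t0287400-01 from 14.8 and 15.9 FPKM to 219 and 239 FPKM. The lower members, of which the following were also chosen after their values were seen, included Os01t0822900-03, with 12.2 and 14.1 FPKM in OsNAC9 and 0.196 and 0.332 FPKM in OsNAC10, and Os05t0489200-01, with 8.41 and 9.10 FPKM and 0.575 and 0.293 FPKM. The family thus split, and its median difference was 0.01 (log2). Without OsNAC10 replicate 2 the higher members numbered 7, and the lower ones 13 when transcripts at 0 in some library were kept.

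Among the other leading transcripts was a pair of neighbours on chromosome 3 described as similar to a protein induced by physical impedance, that is by mechanical resistance to root growth. Os03t0103100-01 was at 60.6 and 69.2 FPKM in OsNAC9, 531 and 570.1 FPKM in OsNAC10 and 578 and 594 FPKM in NT (3.07 ± 0.14, limma adjusted p = 1.42e-05). Its neighbour Os03t0103200-01 followed with 15.8 and 19.1 FPKM against 142 and 155 FPKM. Another locus of this description, Os03t0718800-01, chosen after its values were seen, did not pass the test, with 74.6 and 89.99 FPKM in OsNAC9 and 68.6 and 66.8 FPKM in OsNAC10. An IAA-amino acid hydrolase, an enzyme type that releases the auxin indole-3-acetic acid from its amino acid conjugates, was nearly missing from OsNAC9. This transcript, Os03t0836800-01, was at 0.0351 and 0.0717 FPKM in OsNAC9, 31.9 and 42.0 FPKM in OsNAC10 and 36.7 and 37.7 FPKM in NT (5.16 ± 0.19, limma adjusted p = 4.78e-06).

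A transcript described as ferredoxin-nitrite reductase, the enzyme that reduces nitrite to ammonium (Os02t0765900-00), was at 0.0631 and 0.0324 FPKM in OsNAC9 and 5.80 and 5.87 FPKM in OsNAC10, while NT had 1.49 and 1.64 FPKM. The next locus by identifier, Os02t0765925-00 without a known product, was at 1.85 and 2.19 FPKM and 22.8 and 21.5 FPKM. Both were above NT in OsNAC10 and below NT in OsNAC9. Os12t0548700-01, described as similar to MPI, stood at 29.0 and 33.9 FPKM in OsNAC9 against 165 and 173 FPKM in OsNAC10. A glycosyltransferase of the secondary wall type, Os01t0926400-02, is 1 of 2 transcripts of its locus, whose summed level differed by 0.63 (log2). This transcript rested on less even replicates, with 3.58 and 0.882 FPKM against 12.5 and 16.01 FPKM (2.37 ± 0.59, limma adjusted p = 0.0396). Its adjusted p was 0.11 without OsNAC10 replicate 1, 0.19 without OsNAC10 replicate 2 and 0.22 without OsNAC9 replicate 2, with differences of 2.53, 2.21 and 1.73 (log2). Of the leading transcripts without a known product, Os10t0552300-01 was at 2.102 and 2.99 FPKM in OsNAC9 and 180.1 and 211 FPKM in OsNAC10. Os03t0858400-02, 1 of 2 transcripts of its locus and non-coding, was at 20.1 and 22.001 FPKM in OsNAC10 and below 0.15 FPKM in OsNAC9 and NT. The summed level of its locus differed by 0.69 (log2), less than the 4.46 of this transcript. Os07t0275475-00 was at 0.418 and 0.0707 FPKM in OsNAC9 against 6.55 and 8.29 FPKM in OsNAC10.

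Water channels held calls on the higher side only, although some members lay below 0. Aquaporins move water and small solutes across the plasma membrane (PIP, NIP) or the vacuolar membrane (TIP). Of 41 tested transcripts 6 were higher in OsNAC10 and 0 lower, against 2.22% and 4.92% of all transcripts. At an unadjusted p under 0.05 (limma) 3 were lower. The median difference was 0.16 (log2) and 32 of 41 members lay above 0, and with centred libraries 10 were higher. The higher count fell without OsNAC10 replicate 2, and the lower side was no longer empty without OsNAC9 replicate 1. The most abundant of the 6, Os02t0658100-01, a tonoplast intrinsic protein, was at 246 and 275 FPKM in OsNAC9, 304 and 313 FPKM in NT and 657 and 742 FPKM in OsNAC10 (1.42 ± 0.11, limma adjusted p = 2.73e-04). Os06t0336200-02, a transcript of the delta-type TIP locus, was at 39.7 and 30.2 FPKM against 236 and 194 FPKM, although its own description names no product. The summed level of that locus differed by 1.31 (log2), less than the 2.59 of this transcript. TIP2-3 (Os04t0550900-00) rose from 7.91 and 13.2 FPKM to 34.9 and 32.1 FPKM. A NIP aquaporin of the silicon-transporting subfamily, Os06t0228200-01, was at 19.1 and 22.03 FPKM in OsNAC9 and 55.4 and 59.4 FPKM in OsNAC10, close to the 51.0 and 51.9 FPKM of NT. The summed level of the family was 3675 and 4014 FPKM in OsNAC9 and 5106 and 5469 FPKM in OsNAC10, with 3785 and 3867 FPKM in NT.

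Dirigent-type proteins guide the coupling of lignin and lignan units, and proteins of the Casparian strip membrane family organize the endodermal barrier. They were counted as 1 list, which also held more higher than lower calls. The kinds were not counted apart, and the members named below are of the dirigent type. Of 61 tested, 12 were higher and 2 lower, or 19.7% and 3.28%, against 2.22% and 4.92% of all transcripts. Os10t0333700-00 was at 0.199 and 0.270 FPKM in OsNAC9 and 4.86 and 5.25 FPKM in OsNAC10, both below the 21.8 and 21.2 FPKM of NT. Os11t0644700-01 was at 2.16 and 2.66 FPKM and 13.6 and 14.7 FPKM, and Os11t0645400-01 at 0.0972 and 0.297 FPKM and 6.21 and 8.09 FPKM. On the lower side Os07t0106700-01 fell from 15.3 and 20.1 FPKM to 1.92 and 2.48 FPKM. The count of higher members was unsteady, with 7 without OsNAC10 replicate 1, 5 without OsNAC10 replicate 2 and 7 without OsNAC9 replicate 2, and 8 without OsNAC9 replicate 1 was within 1.5 times of it.

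Genes for the uptake of iron by chelation were lower in OsNAC10 almost as a whole. Grasses secrete mugineic acids, which bind ferric iron in the soil, and take the complex up again. Nicotianamine synthases (NAS) make the precursor, NAAT1 and DMAS1 carry out the next steps to deoxymugineic acid, TOM1 exports it, YSL15 imports the iron complex, YSL2 moves iron-nicotianamine within the plant, IRT1 takes up ferrous iron, and the bHLH factor IRO2 controls many of these genes. Of 11 tested transcripts 9 were lower in OsNAC10 and 0 higher (limma, 0 higher at an unadjusted p under 0.05). Of all transcripts 4.92% were lower and 2.22% higher. The median difference of the iron list was -1.16 (log2). IRO2 (Os01t0952800-01) was at 104 and 112 FPKM in OsNAC9 and 38.1 and 38.0 FPKM in OsNAC10, with 50.3 and 53.8 FPKM in NT between them (-1.48 ± 0.09, limma adjusted p = 7.19e-05). YSL2 (Os02t0649900-00) had the same order, 128 and 133 FPKM against 36.3 and 35.7 FPKM with 60.6 and 62.7 FPKM in NT (-1.83 ± 0.07, limma adjusted p = 4.78e-06).

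NAS1 and NAS2 were the most abundant members. NAS1 (Os03t0307300-01) was at 889 and 1378 FPKM in OsNAC9, 401 and 483 FPKM in OsNAC10 and 383 and 407 FPKM in NT (-1.33 ± 0.26, limma adjusted p = 0.0163). NAS2 (Os03t0307200-01), its neighbour on chromosome 3, was at 1095 and 1495 FPKM, 452 and 576 FPKM and 439 and 469.7 FPKM in the same order (-1.32 ± 0.20, limma adjusted p = 0.00517). In both genes OsNAC9 stood above the other groups and OsNAC10 was near NT. NAS1 and NAS2 are close relatives, and reads may have been shared between them. NAS3 (Os07t0689600-01) was above NT in both lines, with 47.5 and 54.5 FPKM in OsNAC9, 29.7 and 33.1 FPKM in OsNAC10 and 7.56 and 8.97 FPKM in NT.

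NAAT1 (Os02t0306401-00) fell from 209.7 and 219 FPKM to 87.5 and 104 FPKM (-1.16 ± 0.11, limma adjusted p = 5.19e-04), and DMAS1 (Os03t0237100-01) from 121 and 144 FPKM to 66.1 and 77.6 FPKM (-0.87 ± 0.17). The 2 transcripts of YSL15 were both lower, Os02t0650300-01 at 39.2 and 53.0 FPKM against 16.8 and 17.9 FPKM and Os02t0650300-02 at 158 and 174 FPKM against 93.7 and 111 FPKM. The 2 members that missed the call lay on the same side of 0. IRT1 (Os03t0667500-01) was at 119 and 162 FPKM in OsNAC9 and 76.6 and 78.7 FPKM in OsNAC10 (limma adjusted p = 0.0560), and TOM1 (Os11t0134900-01) at 97.1 and 92.6 FPKM and 69.9 and 76.2 FPKM. Leaving out either OsNAC10 library or OsNAC9 replicate 2 left 5 of the 9 calls, and NAS1, NAS3, DMAS1 and Os02t0650300-02 of YSL15 were those lost. A locus near IRT1 described as a metal transport protein, Os03t0667300-00, was chosen after its values were seen, and was at 45.6 and 71.4 FPKM in OsNAC9, 9.94 and 11.2 FPKM in OsNAC10 and 12.9 and 14.2 FPKM in NT.

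The enzymes of fermentation, which regenerate NAD+ when oxygen is short, were lower in OsNAC10, and for several of them both lines were below NT. Pyruvate decarboxylase (PDC) and alcohol dehydrogenase (ADH) turn pyruvate into ethanol, and lactate dehydrogenase (LDH) turns it into lactate. Of 12 tested transcripts of this list, which also holds sucrose synthases, 6 were lower and 0 higher (limma, 0 higher at an unadjusted p under 0.05). Of all transcripts 4.92% were lower and 2.22% higher. The median difference of the fermentation list was -0.66 (log2). All 6 calls remained with each of the 4 libraries left out in turn. ADH1 has 2 annotated transcripts. Os11t0210300-02 was at 209 and 208 FPKM in OsNAC9 and 215 and 224 FPKM in NT, which were close to each other, but at 39.2 and 41.1 FPKM in OsNAC10 (-2.35 ± 0.11, limma adjusted p = 1.42e-05). Os11t0210300-01 was at 68.0 and 74.5 FPKM, 18.8 and 17.0 FPKM and 97.7 and 104 FPKM in OsNAC9, OsNAC10 and NT. ADH2 (Os11t0210500-01) descended in steps from NT (518 and 548 FPKM) to OsNAC9 (243 and 275 FPKM) and OsNAC10 (137 and 136 FPKM).

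PDC1 and a lactate dehydrogenase were nearly lost from both lines and lowest in OsNAC10. PDC1 (Os05t0469600-01) was at 54.7 and 53.3 FPKM in NT, 1.73 and 1.92 FPKM in OsNAC9 and 0.158 and 0.0537 FPKM in OsNAC10 (-1.35 ± 0.10, limma adjusted p = 1.60e-04). The adjacent PDC fragment Os05t0469800-00 was at 2.04 and 1.87 FPKM in OsNAC9 and 0.288 and 0.424 FPKM in OsNAC10. LDH (Os06t0104900-01) was at 90.2 and 97.4 FPKM, 2.61 and 3.45 FPKM and 0.362 and 0.266 FPKM in NT, OsNAC9 and OsNAC10. In these low values the log2(FPKM + 1) scale understates the difference between the lines. PDC2 (Os03t0293500-02), the abundant isozyme, did not reach the fold threshold, with 169 and 179 FPKM against 132 and 131 FPKM. Sucrose synthase Os06t0194900-01 was at 57.0 and 63.5 FPKM in OsNAC9 and 70.7 and 59.4 FPKM in OsNAC10, which overlapped. Non-symbiotic hemoglobins bind nitric oxide and are induced at low oxygen in plants. Their list was added after values were seen. Of 6 tested transcripts 1 was higher and 1 lower, beside 2.22% and 4.92% of all tested transcripts. The lower count was larger without OsNAC9 replicate 1, and the median difference was 0.17 (log2). Here rHb4 (Os03t0234100-01) rose from 1.92 and 1.82 FPKM to 5.72 and 7.05 FPKM, and rHb2 (Os03t0226200-01) fell from 383 and 449 FPKM to 59.0 and 61.8 FPKM, with 135 and 157 FPKM in NT. The related rHb1 (Os03t0233900-01), also chosen after its values were seen, did not pass at 222 and 244 FPKM against 158 and 159 FPKM.

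Seed storage protein transcripts gave the largest differences of all. Prolamins, glutelins and alpha-globulin are stored in the endosperm of the rice grain, and RA17 and RAG2 are small seed albumins known as allergens. The list was formed after these values were seen, and its counts are a description. Of 55 annotated transcripts 27 passed the filter, which required a value above 0 in all libraries. Of these 27, 22 were lower in OsNAC10 and 0 higher (limma, 2 higher at an unadjusted p under 0.05), against 4.92% and 2.22% of all tested transcripts. The median difference of the list was -3.72 (log2). The 5 uncalled members were all described as glutelin family proteins, such as Os01t0111900-01 with 299 and 299.8 FPKM and 222 and 219.6 FPKM. The prolamin Os07t0206500-00 was at 129 and 134 FPKM in OsNAC9, 0.0527 and 0.0631 FPKM in OsNAC10 and 16.2 and 12.8 FPKM in NT (-6.97 ± 0.22, limma adjusted p = 2.38e-06). A second prolamin, Os12t0269200-01, was at 78.4 and 87.8 FPKM, 0.0442 and 0.0528 FPKM and 9.96 and 7.82 FPKM in the same order of groups. Both were high in both OsNAC9 libraries, an order of magnitude lower in NT and close to 0 in both OsNAC10 libraries.

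The albumins, a glutelin and the globulin repeated that order. RAG2 (Os07t0214300-01) was at 91.3 and 108 FPKM in OsNAC9, 1.21 and 0.625 FPKM in OsNAC10 and 9.76 and 10.8 FPKM in NT. RA17 (Os07t0214600-01) was at 51.3 and 61.7, 0.0976 and 0.0583 and 4.61 and 5.01 FPKM. The glutelin Os01t0762500-00 was at 39.1 and 37.4, 0.393 and 0.299 and 6.27 and 5.84 FPKM, and alpha-globulin (Os05t0499100-01) at 47.0 and 59.7, 1.24 and 1.39 and 4.77 and 5.15 FPKM. Other members named by their size were Os07t0215500-01 (-5.18 ± 0.11), Os07t0214100-01 (-4.77 ± 0.10), Os05t0328800-00 (-4.53 ± 0.15) and Os05t0329350-00 (-4.28 ± 0.13), of which Os05t0328800-00 had the highest limma adjusted p, 2.75e-06. Several prolamins are near copies, such as Os05t0329100-01 and Os05t0329300-01 with 14.4 and 11.8 FPKM and 14.1 and 11.9 FPKM in OsNAC9, and the share of each copy is uncertain. The count stayed at 22 with each library left out in turn, and was 41 when transcripts at 0 in some library were kept.

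Storage proteins are defining transcripts of seed rather than of root. The whole list of 55 annotated transcripts summed to 1437 and 1519 FPKM in OsNAC9, 453 and 486 FPKM in OsNAC10 and 458 and 433 FPKM in NT, so OsNAC10 overlapped NT in this sum, which includes the uncalled glutelin family members. The prolamins, taken separately after values were seen, had the lines on opposite sides of NT. The summed level of the 30 annotated prolamins was 575 and 592 FPKM in OsNAC9, 83.2 and 66.1 FPKM in NT, 20.001 and 19.1 FPKM in OsNAC6, 12.9 and 13.4 FPKM in OsNAC5 and 1.68 and 1.49 FPKM in OsNAC10. The part of seed tissue in the differences between the lines was not tested. The list of oleosins and seed maturation proteins had 1 of 8 tested transcripts lower and 0 higher (limma, 0 higher at an unadjusted p under 0.05), against 4.92% and 2.22% of all tested transcripts. Its 17 annotated transcripts summed to 252 and 282 FPKM in OsNAC9, 104 and 116 FPKM in OsNAC10 and 94.2 and 95.7 FPKM in NT. Its called member was a peroxiredoxin described below with the abscisic acid response. The oleosins, the coat proteins of seed oil bodies, included 0.0772 and 0.315 FPKM in OsNAC9 and 0.179 and 0.178 FPKM in OsNAC10 for Os03t0699000-01, and 2.22 and 3.37 FPKM and 1.61 and 1.79 FPKM for Os06t0473800-00, neither of them called. Photosynthesis transcripts, listed as markers of shoot tissue, numbered 86 annotated and 43 tested. The annotated ones had a summed level of 128 and 147 FPKM in OsNAC9, 73.7 and 75.7 FPKM in OsNAC10 and 73.6 and 70.2 FPKM in NT. Of the tested ones 4 were lower and 0 higher (limma, 6 higher at an unadjusted p under 0.05), against 4.92% and 2.22% of all tested transcripts. The lower count fell with any of the 4 libraries left out. The median difference of the list was -0.06 (log2), and 17 of the 43 lay above 0. A Rubisco-type transcript, Os02t0152400-01, made most of the difference in the sum, with 60.7 and 74.0 FPKM in OsNAC9 and 6.95 and 7.19 FPKM in OsNAC10. Whether this transcript marks shoot tissue was not tested.

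Transcripts of late seed development and abscisic acid response were also lower in OsNAC10 in several members. Late embryogenesis abundant (LEA) proteins protect cells during drying, in seeds and in stressed tissue. Of 29 tested transcripts in this list 4 were lower and 1 higher, against 4.92% and 2.22% of all transcripts. The LEA-like transcript Os05t0542500-02 was at 22.8 and 27.001 FPKM in OsNAC9, 1.78 and 2.66 FPKM in OsNAC10 and 3.59 and 2.42 FPKM in NT (-3.02 ± 0.18, limma adjusted p = 7.19e-05). The ABA-induced membrane protein PM19 (Os05t0381400-01), chosen after its values were seen, was at 3.13 and 4.48 FPKM against 0.370 and 0.201 FPKM, and the LEA group 3 transcript Os01t0314800-01 at 146 and 178 FPKM against 42.1 and 46.9 FPKM. OsABI5, described above, also belongs to them. A peroxiredoxin of the 1-Cys type, an antioxidant enzyme of the aleurone and embryo, was chosen after its values were seen (Os07t0638400-01) and stood at 176 and 212 FPKM, 28.0 and 34.2 FPKM and 30.5 and 32.9 FPKM in OsNAC9, OsNAC10 and NT. A cytoplasmic fructose-bisphosphate aldolase of glycolysis, Os08t0120600-01, was at 134 and 174 FPKM in OsNAC9, 4.18 and 5.65 FPKM in OsNAC10 and 38.2 and 39.999 FPKM in NT (-4.71 ± 0.19, limma adjusted p = 7.33e-06). The prolamin sums given above were likewise highest in OsNAC9 and lowest in OsNAC10, and the part of seed tissue in these differences was not tested.

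Among defence genes the lists differed. NB-ARC proteins, the intracellular immune receptors, had 13 of 297 tested transcripts lower and 0 higher (limma, 9 higher at an unadjusted p under 0.05), near the 4.92% of all transcripts, with 8 lower without OsNAC10 replicate 2 and 0 at a threshold of 2 fold. WRKY factors, many of which act in the response to pathogens, had 18 of 87 tested transcripts lower and 0 higher (limma, 3 higher at an unadjusted p under 0.05), against 4.92% and 2.22% of all transcripts. WRKY76 (Os09t0417600-02) fell from 34.3 and 36.7 FPKM to 9.76 and 13.4 FPKM and WRKY62 (Os09t0417800-01), near it on chromosome 9, from 64.2 and 86.2 FPKM to 28.9 and 31.0 FPKM. In both genes OsNAC9 was at or above the NT values of 30.4 and 34.2 FPKM and 51.0 and 54.2 FPKM. The lower count was 11 without OsNAC10 replicate 2 and 11 without OsNAC9 replicate 2. Chitinases, which cut the chitin of fungal walls, and other pathogenesis-related proteins had 18 of 69 tested transcripts lower and 3 higher. The class III chitinase Os11t0700900-02 was at 136 and 164 FPKM in OsNAC9, 11.4 and 9.94 FPKM in OsNAC10 and 45.5 and 44.1 FPKM in NT (-3.69 ± 0.18, limma adjusted p = 1.91e-05). A PR-1a transcript, Os07t0127500-01, was below the 68.0 and 72.3 FPKM of NT in both lines, at 17.0 and 23.7 FPKM and 4.12 and 4.13 FPKM. Os05t0247100-02, described as similar to a class III chitinase, ran the other way, from 116 and 174 FPKM in OsNAC9 to 429.8 and 424 FPKM in OsNAC10. The paper lists its locus as a drought-induced protein and xylanase inhibitor.

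The synthesis of phenolic and terpenoid compounds held more lower than higher calls. The list counts of this paragraph stand against 4.92% lower and 2.22% higher of all transcripts. Of 68 transcripts of the lignin pathway and laccases 16 were lower and 4 higher. The lower count was 9 without OsNAC10 replicate 1, 7 without OsNAC10 replicate 2 and 5 without OsNAC9 replicate 2, and the higher count was 1 without OsNAC10 replicate 1 or either OsNAC9 library. The leading members were 2 cinnamoyl-CoA reductases, enzymes of monolignol synthesis. Os02t0808800-01 was at 30.2 and 31.6 FPKM in NT, 9.44 and 10.5 FPKM in OsNAC9 and 0.263 and 0.218 FPKM in OsNAC10 (-3.14 ± 0.10, limma adjusted p = 2.47e-06), and Os02t0811800-01 at 27.5 and 29.5, 5.599 and 5.70 and 0.503 and 0.384 FPKM. Both stepped down from NT to OsNAC9 and again to OsNAC10. Of 25 terpenoid synthesis transcripts 6 were lower and 1 higher, which was lost without either OsNAC10 library or OsNAC9 replicate 1. They include enzymes of the diterpenoid phytoalexins, the antimicrobial compounds of rice, such as syn-copalyl diphosphate synthase (Os04t0178300-01) at 23.4 and 25.6 FPKM in NT, 13.6 and 11.3 FPKM in OsNAC9 and 4.50 and 5.11 FPKM in OsNAC10. Cytochrome P450 enzymes had 27 of 194 lower and 7 higher, with 16 lower and 4 higher without either OsNAC10 library, and 13 lower without OsNAC9 replicate 2. Os02t0503900-01 of this family was present mainly in OsNAC9, at 11.7 and 15.04 FPKM against 0.680 and 0.687 FPKM in OsNAC10 and 0.769 and 0.604 FPKM in NT. UDP-glycosyltransferases had 15 of 105 lower and 0 higher (limma, 7 higher at an unadjusted p under 0.05), with 9 lower without OsNAC10 replicate 1 and 6 without OsNAC9 replicate 2. In jasmonate synthesis and signalling 9 of 34 were lower and 1 higher, with 4 lower without OsNAC10 replicate 2 or OsNAC9 replicate 2 and 0 higher without any 1 library. The JAZ-type repressor Os03t0180800-01 of this list went from 5.11 and 5.51 FPKM to 2.78 and 2.67 FPKM, below the 14.2 and 16.5 FPKM of NT in both lines.

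Other regulators moved less evenly, and their counts stand against 2.22% higher and 4.92% lower of all transcripts. Of 70 tested NAC transcripts 6 were higher and 7 lower, OsNAC9 and OsNAC10 included, so the family had no common direction. Beside OsNAC9, the NAC transcript Os01t0816100-01 was at 13.1 and 16.04 FPKM in OsNAC9 and 5.601 and 6.32 FPKM in OsNAC10, and OsNAC3 (Os07t0225300-01) at 17.8 and 20.1 FPKM and 9.70 and 11.1 FPKM. The higher count was 3 without OsNAC10 replicate 1, 2 without OsNAC10 replicate 2 and 2 without OsNAC9 replicate 1, and the lower count was 4 without OsNAC10 replicate 1 or OsNAC9 replicate 2. AP2/ERF factors had 10 of 70 lower and 1 higher, with 5 lower without either OsNAC10 library and 4 without OsNAC9 replicate 2. A RAP2.2-like member, Os03t0341000-01, was at 29.2 and 30.6 FPKM in NT, 9.70 and 11.3 FPKM in OsNAC9 and 3.62 and 4.78 FPKM in OsNAC10. In Arabidopsis RAP2.2 acts in the response to low oxygen. MYB factors had 3 of 111 higher and 6 lower, shares near those of all transcripts, and 3 lower without OsNAC9 replicate 2.

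Hormone lists contained single strong members. In the auxin list 8 of 151 were higher and 7 lower, or 5.30% and 4.64%, beside 2.22% and 4.92% of all transcripts. The auxin efflux carrier Os09t0491740-01 was at 43.8 and 48.4 FPKM in OsNAC9, 11.8 and 12.7 FPKM in OsNAC10 and 17.1 and 17.95 FPKM in NT (-1.83 ± 0.11, limma adjusted p = 7.19e-05), and a second one on the same chromosome, Os09t0554300-01, at 14.5 and 14.9 FPKM against 5.30 and 5.32 FPKM. The higher count of this list was 3 without OsNAC10 replicate 2 and 4 without either OsNAC9 library, and the lower count 4 without OsNAC9 replicate 2. Of 23 gibberellin-related transcripts 4 were lower and 2 higher, beside 4.92% and 2.22% of all transcripts. The GAST1-type peptide Os03t0760800-01, of a family induced by gibberellin, was at 142 and 154 FPKM in OsNAC9, 17.1 and 19.3 FPKM in OsNAC10 and 21.1 and 18.5 FPKM in NT (-2.96 ± 0.14, limma adjusted p = 1.56e-05). A related GASA5-like transcript, Os09t0414900-01, had the opposite order with 12.5 and 16.7 FPKM in OsNAC9 and 49.4 and 48.9 FPKM in OsNAC10.

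Nutrient and sugar transport changed in a minority of members of each list, beside 2.22% higher and 4.92% lower of all transcripts. Of 52 sugar transporters 6 were higher and 3 lower, or 11.5% and 5.77%. On the higher side, the sugar transporter Os03t0197100-01 was at 1.22 and 1.03 FPKM in OsNAC9 and 6.08 and 5.98 FPKM in OsNAC10 (1.73 ± 0.15, limma adjusted p = 4.46e-04). The MtN3-type transcript Os05t0426000-01, of the SWEET family of sugar exporters, was at 13.1 and 14.8 FPKM in OsNAC9 but 0.0887 and 0.0264 FPKM in OsNAC10 and 0.0327 and 0.0420 FPKM in NT (-3.82 ± 0.12, limma adjusted p = 1.95e-06). Of 9 transcripts of phosphate transport and signalling the transporter PT2 (Os03t0150800-01) alone was called (2 others were lower without OsNAC9 replicate 1), higher at 31.9 and 37.5 FPKM in OsNAC10 against 17.4 and 14.6 FPKM in OsNAC9. In nitrate and ammonium uptake 1 of 15 was called, a transcript of nitrate reductase NIA1 (Os08t0468100-01) at 7.06 and 9.96 FPKM against 4.00 and 3.32 FPKM, and its adjusted p was 0.06 without OsNAC10 replicate 1, 0.13 without OsNAC10 replicate 2 and 0.14 without OsNAC9 replicate 2. Metallothioneins, small metal-binding proteins, split into 2 higher and 2 lower of 12, with 1 higher without OsNAC10 replicate 2. The type 3 transcript Os01t0200700-01 was at 124 and 121 FPKM in OsNAC9 and 402 and 441 FPKM in OsNAC10. The type 1 transcript Os12t0568500-01, among the most abundant of the root, was at 6076 and 7220.1 FPKM and 2494 and 3428 FPKM, and its call was lost without any 1 of the 4 libraries (limma adjusted p from 0.06 to 0.16).

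Several lists had no or almost no call, beside 2.22% higher and 4.92% lower of all transcripts. Of 171 ribosomal protein transcripts 1 was lower and 0 higher (limma, 4 higher and 12 lower at an unadjusted p under 0.05), with a median difference of -0.0041 (log2), and of 133 histones and cyclins, marking dividing cells, 1 was lower and 0 higher (12 and 14 at an unadjusted p under 0.05). Of 13 clock transcripts 0 passed the limma test (4 higher and 1 lower at an unadjusted p under 0.05), with 2 lower calls without OsNAC10 replicate 1 and 1 higher with median centring, although the GIGANTEA transcript Os01t0182600-01 stood at 57.8 and 73.5 FPKM in OsNAC9 and 36.5 and 14.7 FPKM in OsNAC10 (limma adjusted p = 0.0606). The 3 tested cellulose synthases of the xylem secondary wall were not called, nor were the silicon transporters Lsi1 (Os02t0745100-01), with 826 and 928 FPKM against 955 and 996 FPKM, and Lsi2 (Os03t0107300-01), with 307 and 382 FPKM against 302 and 300.4 FPKM, which mark the exodermis and endodermis. Heat shock proteins and factors had 4 of 106 lower, near the share of all transcripts, and 2 lower without OsNAC10 replicate 1.

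**Figure D3:**
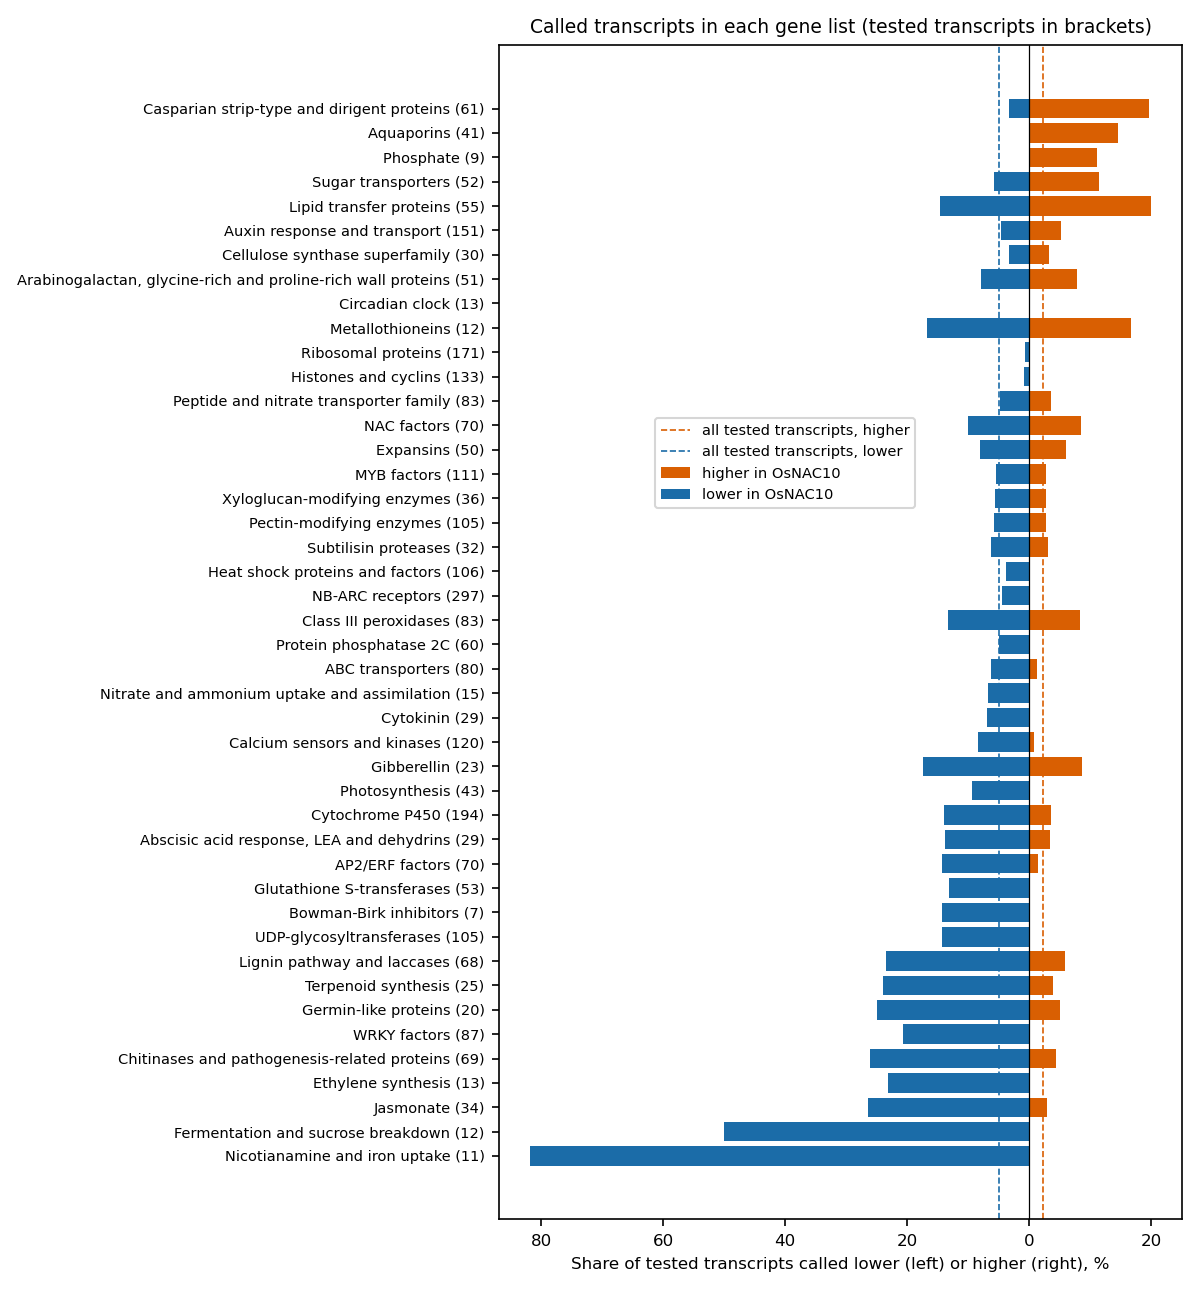
Share of tested transcripts (%) called higher (orange, to the right) or lower (blue, to the left) in OsNAC10 for the gene lists with at least 7 tested transcripts that were not formed after values were seen, with the number tested in brackets. Dashed lines mark the shares over all tested transcripts, 2.22% higher and 4.92% lower. The iron list, with 9 of 11 lower, and the fermentation list, with 6 of 12 lower, reach furthest. The joint list of Casparian strip-type and dirigent proteins, the aquaporins and the lipid transfer proteins extend to the right.

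Called transcripts also lay side by side on the chromosomes. Counting tested loci in the order of their identifiers, there were 44 runs of at least 3 successive loci with a call in the same direction, 37 lower and 7 higher. The runs held 137 lower and 26 higher loci. On chromosome 5 all 8 loci from Os05g0328800 to Os05g0329700 were prolamins, between -4.53 and -3.65 (log2), and on chromosome 7 a run of 6 loci from Os07g0213600 to Os07g0215050 held the RA17 and RAG2 genes. On chromosome 4 a run of 8 loci from Os04g0177600 to Os04g0180500 covered the gene cluster for momilactones, diterpenoids that rice roots release, with syn-copalyl diphosphate synthase, syn-pimaradiene synthase, 2 CYP99A enzymes and a dehydrogenase. The following examples were chosen after their values were seen. Os04t0179200-01, the dehydrogenase, was at 28.2 and 31.6 FPKM in NT, 17.8 and 23.3 FPKM in OsNAC9 and 4.89 and 6.40 FPKM in OsNAC10 (-1.69 ± 0.25, limma adjusted p = 0.00513), and Os04t0179700-01, the pimaradiene synthase, at 10.5 and 11.6, 3.64 and 2.90 and 1.08 and 1.26 FPKM. On the higher side, a run of 4 loci on chromosome 10 from Os10g0551700 to Os10g0552300 held lipid transfer proteins and the root-specific RCc2 gene. RCc2 (Os10t0551800-00) was at 125 and 167 FPKM in OsNAC9 and 298 and 357 FPKM in OsNAC10. Gene copies in such runs resemble each other, and reads shared between copies would make them move together, which was not tested.

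**Figure D4:**
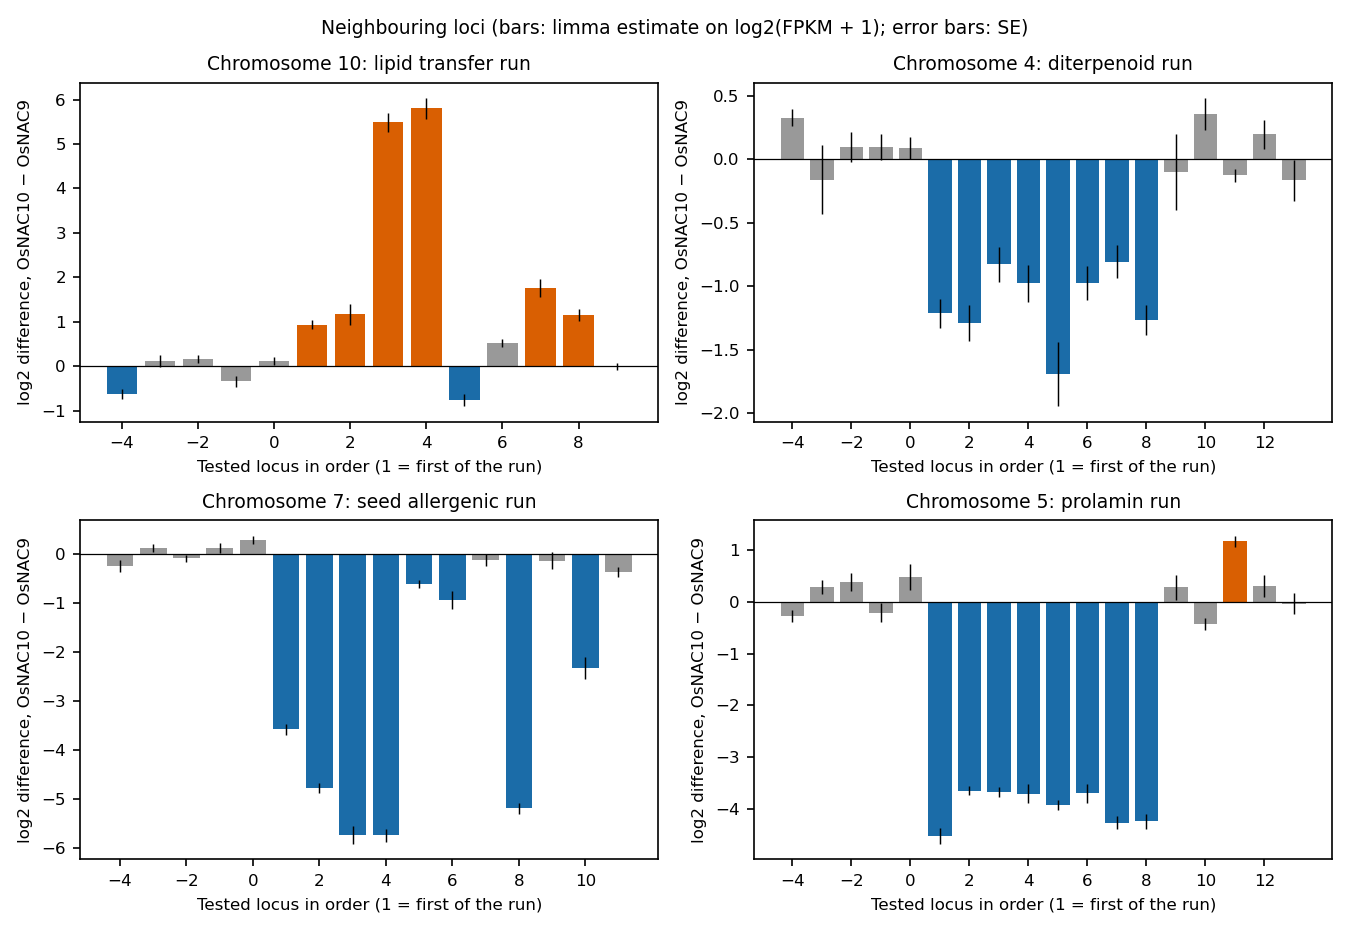
Log2 difference between OsNAC10 and OsNAC9 (y axis, limma estimate on log2(FPKM + 1), error bars SE) of successive tested loci (x axis, 1 is the first locus of the run) for 4 runs with 5 loci on either side, each locus by its transcript with the largest difference. Orange bars are called higher, blue bars lower and grey bars not called. The called loci form blocks with mostly uncalled neighbours, as in the 8 prolamin loci of chromosome 5 between -4.53 and -3.65.

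Transcripts listed at 0 FPKM in both libraries of a line were outside the test, and no fold is given for them. Of those with at least 1 FPKM in both libraries of the other line, 11 were at 0 in OsNAC9 and 34 at 0 in OsNAC10. The most abundant of the 34 was the prolamin Os12t0269600-00, at 79.1 and 86.3 FPKM in OsNAC9 and 9.40 and 7.99 FPKM in NT. It was followed by 2 adjacent oxalate oxidases on chromosome 3, germin-type enzymes that release hydrogen peroxide from oxalate. Os03t0694000-01 was at 50.03 and 53.6 FPKM in OsNAC9 and 0.139 and 0.179 FPKM in NT, and Os03t0693900-00 was at 38.2 and 46.97 FPKM and at 0.1003 and 0.299 FPKM. Both were therefore almost limited to OsNAC9 among these 3 groups. Of the 11 transcripts at 0 in OsNAC9, Os02t0129000-00, without a known product, was at 10.8 and 10.4 FPKM in OsNAC10 and at 0 in NT. Others among the 11 were highest in NT. The dirigent-like Os10t0334500-00 was at 6.29 and 6.01 FPKM in OsNAC10 and 15.8 and 17.5 FPKM in NT. Os10t0335000-00, without a known product, was at 3.86 and 5.47 FPKM in OsNAC10 and 12.3 and 12.1 FPKM in NT. A calmodulin-like transcript, Os04t0205000-00, was at 3.49 and 4.71 FPKM in OsNAC10 and also at 0 in NT, and Os01t0288700-01, a hypothetical gene, was at 5.01 and 5.93 FPKM in OsNAC10 against 0.211 and 0.135 FPKM in NT.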

How the data were processed

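Roots of 5 groups with 2 libraries each were sequenced after preparation of strand-specific libraries. The submitters trimmed reads, removed PCR duplicates and low-quality bases, aligned with TopHat to the rice genome (IRGSP-1.0 in the submitters' processing notes) and deposited FPKM values of 41635 RAP transcripts, and the program that made the FPKM is not given in the sources used here. The authors' FPKM divide by transcript length and library size, so they hold no counts, and transcripts of 1 locus share reads by estimation. The deposited tables held the same values (0 differed), and 0 sample columns were left unused.

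Transcripts above 0 FPKM in all libraries were tested (33178, with 8457 removed) as log2(FPKM + 1), a scale that understates changes of low transcripts. The 5 groups entered 1 fit in limma 3.58.1 (trend, R 4.3.3), with the contrast OsNAC10 minus OsNAC9 two-sided and Benjamini-Hochberg adjustment. A call needed an adjusted p under 0.05 and at least 1.5 fold. Summaries used Python 3.11.15 and pandas 2.3.3. The fit was tested on simulated data. The 52 gene lists came from RAP descriptions or loci. Transcripts to be described were the construct genes, the 12 called transcripts with a product and 4 without in each direction that had the largest differences (at least 5 FPKM in the higher line, the locus sum changed the same way, 1 per locus), up to 4 called members of each list, every member of lists given by locus, and up to 6 transcripts at 0 in 1 line. Others are marked as chosen after their values were seen. The comparison and lists were chosen with earlier results of these data known. Of the lists, 6 (seed storage proteins, oleosins, prolamins, starch synthases, hemoglobins, early nodulins) were added, and the search words of 4 corrected, after values were seen. In the starch synthase list 1 of 11 was lower and 0 higher, beside 4.92% and 2.22% of all tested transcripts. The 15 alternatives changed the pseudocount (0.1), the filter, the trend, the scaling (median centring, quantile), the unit (locus sums), the samples (the 4 libraries alone, or 1 left out), the block, and the thresholds.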

Additional observations from a re-analysis of the deposited data

Results flagged for a closer look

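Of 229 named transcripts, 78 had 1 line above both NT libraries and the other below both, and 74 of these were called. The named transcripts were largely chosen among called ones, so this number called follows from the choice. Of all tested transcripts, 38.5% were above both NT libraries and 35.2% below both in OsNAC10, and 33.8% and 31.0% in OsNAC9. The share with the lines on opposite sides was not counted over all tested transcripts. The 26 called transcripts on opposite sides among the construct genes and the transcripts with the largest differences are given here. The difference between the lines was tested directly by the limma contrast, and the values are log2 differences of OsNAC10 minus OsNAC9. For the construct genes and OsABI5 these were -4.52 for OsNAC9 (Os03t0815100-01), 0.59 for OsNAC10 (Os11t0126900-01) and -2.30 for OsABI5 (Os01t0859300-01). On the higher side they were 5.80 for Os10t0552300-01, 5.49 for the lipid transfer protein Os10t0552200-01, 4.66 for the RCc3-like Os04t0554600-00, 4.12 for the phosphoesterase Os01t0955000-02, 3.81 for the lipid transfer protein Os07t0287400-01, 2.94 for Os02t0765925-00, 2.76 for the dirigent-type Os11t0645400-01, 2.71 for the nitrite reductase Os02t0765900-00, 2.59 for the water channel locus transcript Os06t0336200-02 and 2.39 for Os12t0548700-01. On the lower side the seed storage transcripts gave -6.97 for Os07t0206500-00, -6.32 for Os12t0269200-01, -5.73 for Os07t0214600-01, -5.72 for Os07t0214300-01, -5.18 for Os07t0215500-01, -4.87 for Os01t0762500-00, -4.77 for Os07t0214100-01, -4.54 for Os05t0499100-01, -4.53 for Os05t0328800-00 and -4.28 for Os05t0329350-00. The remaining lower ones were -5.31 for Os07t0153150-02, -4.71 for the aldolase Os08t0120600-01 and -3.58 for Os07t0516700-01. The 2 libraries of a group are too few for a check of single outlying libraries.

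A further 6 transcripts stood outside the test because they were listed at 0 FPKM in both libraries of a line. Unlike Os10t0334500-00 and Os10t0335000-00 described above, these 6 were well above NT in the other line. Their mean levels in OsNAC9 were 82.7 FPKM for the prolamin Os12t0269600-00, 51.8 FPKM for the oxalate oxidase Os03t0694000-01 and 42.6 FPKM for its neighbour Os03t0693900-00. The means in OsNAC10 were 10.6 FPKM for Os02t0129000-00, 5.47 FPKM for Os01t0288700-01 and 4.10 FPKM for the calmodulin-like Os04t0205000-00.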

How the results depend on the processing

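The 738 higher and 1632 lower calls stayed within 1.5 times of these counts under 11 of 15 alternatives in both directions. Leaving out 1 library gave 388 to 615 higher and 857 to 1544 lower calls, with the lowest higher count without OsNAC10 replicate 2 and the lowest lower count without OsNAC9 replicate 2. The remaining library of a line was then assumed to vary like the other groups. Median centring gave 1144 higher calls, and a threshold of 2 fold gave 235 higher and 672 lower. The replicate numbers did not pair the samples, since same-numbered libraries of different groups deviated together at r = -0.51 to 0.31 (0.06 between OsNAC9 and OsNAC10), and a fit with the replicate number as a block gave 658 higher and 1470 lower calls. An unadjusted p under 0.05 gave 982 and 2169. Of 229 named transcripts, 0 reversed under any alternative, and those that lost their call numbered 45 without OsNAC10 replicate 2, 41 without OsNAC9 replicate 2, 38 without OsNAC10 replicate 1, 20 without OsNAC9 replicate 1 and 12 with the block. Of the 32 transcripts with the largest differences, only Os01t0926400-02 lost its call under any alternative, among them the block (adjusted p = 0.0665), no filter on zeros (0.0595) and a pseudocount of 0.1 (0.0575). Causes were not tested. Read numbers were not used here, and transcripts near 0 FPKM are the least precise.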

Other observations

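Some further transcripts for small secreted or membrane-associated proteins differed between the lines, and the following were chosen after their values were seen. Thionins, small cysteine-rich antimicrobial peptides, were among the most abundant of them. The thionin-like Os07t0429700-01 was at 3143 and 3324 FPKM in OsNAC9, 869.7 and 1015 FPKM in OsNAC10 and 1106 and 1186 FPKM in NT (-1.78 ± 0.14, limma adjusted p = 2.73e-04), and Os07t0432201-01 at 2195 and 2099, 657 and 789 and 685 and 743 FPKM. In both OsNAC9 stood apart and OsNAC10 was near NT. The PBZ1-type transcripts of chromosome 12, of the pathogenesis-related PR10 kind, had another order, with Os12t0555500-01 at 260.3 and 279.5 FPKM in NT, 54.2 and 63.9 FPKM in OsNAC9 and 18.6 and 20.6 FPKM in OsNAC10 (-1.54 ± 0.10, limma adjusted p = 1.14e-04). Early nodulins had 4 of 8 tested transcripts lower and 0 higher, against 4.92% and 2.22% of all tested transcripts. All 4 lay in 1 run of neighbouring loci on chromosome 6, such as Os06t0142300-00 at 41.6 and 44.7, 9.37 and 12.9 and 2.62 and 3.00 FPKM in NT, OsNAC9 and OsNAC10. Their count fell without either OsNAC10 library or OsNAC9 replicate 2. A remorin, a protein of plasma membrane domains (Os03t0111200-01), was higher in OsNAC10, at 102 and 98.8 FPKM in OsNAC9 and 332 and 349 FPKM in OsNAC10 (1.75 ± 0.07, limma adjusted p = 1.01e-05).

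The 2 transcripts of the phosphoesterase locus Os01g0955000 moved in opposite directions. Os01t0955000-02 was at 0.428 and 0.437 FPKM in OsNAC9, 24.9 and 23.0 FPKM in OsNAC10 and 19.0 and 18.2 FPKM in NT (4.12 ± 0.10, limma adjusted p = 6.45e-07). Its partner Os01t0955000-03 was at 5.52 and 6.80, 0.478 and 0.246 and 0.586 and 0.299 FPKM (-2.39 ± 0.13, limma adjusted p = 4.48e-05). The division of reads between transcripts of 1 locus is an estimate, so the exchange of the transcripts is less certain than the level of the locus.

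Other lower transcripts without a known product were large too. Os07t0153150-02 was at 43.8 and 39.9 FPKM in OsNAC9, 0.0931 and 0.0602 FPKM in OsNAC10 and 0.286 and 0.342 FPKM in NT, Os07t0516700-01 at 38.0 and 45.8, 2.12 and 3.10 and 5.16 and 4.32 FPKM, Os01t0845950-01 at 18.1 and 16.3, 0.156 and 0.112 and 0.138 and 0.118 FPKM and Os10t0118200-01 at 21.6 and 21.2, 1.34 and 1.44 and 0.805 and 1.12 FPKM.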
